A study of Mus musculus with 8 samples.

Results

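The Notch receptors Notch1, Notch2, Notch3 and Notch4, the ligands Dll1, Dll4, Jag1 and Jag2, and the target genes Hey1 and Heyl were followed in RNA from mouse mammary tumors. These 10 genes were taken by symbol from a table of 55414 Ensembl mouse genes. The tumors grew from the PyMt cell line, a single line derived from an MMTV-PyMt mouse tumor. In that mouse the mouse mammary tumor virus promoter drives the polyoma middle T antigen in mammary epithelium. The cells were implanted into the mammary fat pad of WT female C57BL/6 mice. There were 4 tumors treated topically with calcipotriol, a vitamin D analog, at 20 nmol every 2 days from 2 days after implantation, and 4 tumors treated with EtOH, its solvent. Recipient mice in this treatment design were 6 to 8 weeks old, and harvest came 24 hours after the final dose.

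Notch receptors sit on the cell surface and bind ligands of the Delta-like and Jagged families on neighboring cells. Binding exposes the receptor to cleavage by an ADAM protease and then by γ-secretase, which frees an intracellular domain that joins the DNA-binding protein RBPJ and switches on genes of the Hes and Hey families. In blood vessels, Dll4, Notch1 and Notch4 act between endothelial cells, where Dll4 restrains sprouting, and Notch3 and Heyl are typical of the mural cells (pericytes and smooth muscle cells) that wrap them. Jag1 is made by endothelial, epithelial and other cells.

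Each library held 19685419 to 25084713 estimated counts. Levels are given as CPM, counts scaled to 1000000 per library, after TMM scaling, which assumes that most genes do not change. A gene was called when the Benjamini-Hochberg adjusted p of edgeR's quasi-likelihood test over the 14458 genes tested was under 0.05 and its absolute log2 fold change was at least 1. By this rule 1.07% of tested genes were called higher with calcipotriol and 0.948% lower, 2.02% in all. The labels name an epithelial cell type, and the epithelial keratins Krt8 (284 to 651 CPM) and Krt18 (259 to 664 CPM) were abundant in all 8 tumors, but Epcam and Krt19, also epithelial, had 0 counts in EtOH replicates 1 and 2. These 2 tumors also had more endothelial and mural RNA than EtOH replicates 3 and 4, at summed marker levels of 745 and 741 against 365 and 405 CPM and of 932 and 832 against 486 and 484 CPM, so results are also given with both left out, a choice made after the data were seen. EtOH replicates 3 and 4, on which those results rest, had more skeletal muscle RNA (summed level 39.6 and 40.0 against 4.81 and 3.99 CPM). They also had more Col1a1 (1154 and 1039 against 303 and 271 CPM). The summed fibroblast level, which includes Col1a1, was 4825 to 5380 CPM with EtOH and was not split in this way. Whole tumors were sequenced, and genes of fibroblasts, macrophages, endothelial cells and mural cells were present in each. In bulk RNA, fewer cells of a type and less RNA per cell cannot be told apart.

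Of the 10 members, 1 fell with calcipotriol and 0 rose. The gene that fell was Dll4. This is 10% of the members, beside the 0.948% of all genes called lower. The members were chosen with earlier results of these data known, so the shares in this paragraph describe the list and do not test it. Without the adjustment, at a p under 0.05, 2 members were lower (Dll4 and Notch4) and 0 were higher. The share of all tested genes at an unadjusted p under 0.05 was not computed. Such counts, here and below, therefore stand without a background. DESeq2 called 2 members lower and 0 higher, and limma-voom called 0 in either direction. Changes below 0 on the log2 scale were found for 8 members (47.9% of all tested genes were below 0) and above 0 for 2, Notch1 and Notch3, with a median of -0.39, beside 0.02 for all tested genes. The groups did not overlap for 1 member lower with calcipotriol (6.16% of all tested genes) and for 0 members higher (6.32%). All 10 passed the filter on low counts. With EtOH replicates 1 and 2 left out, edgeR called 0 members lower and 1 higher, Notch3.

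**Figure D1:**
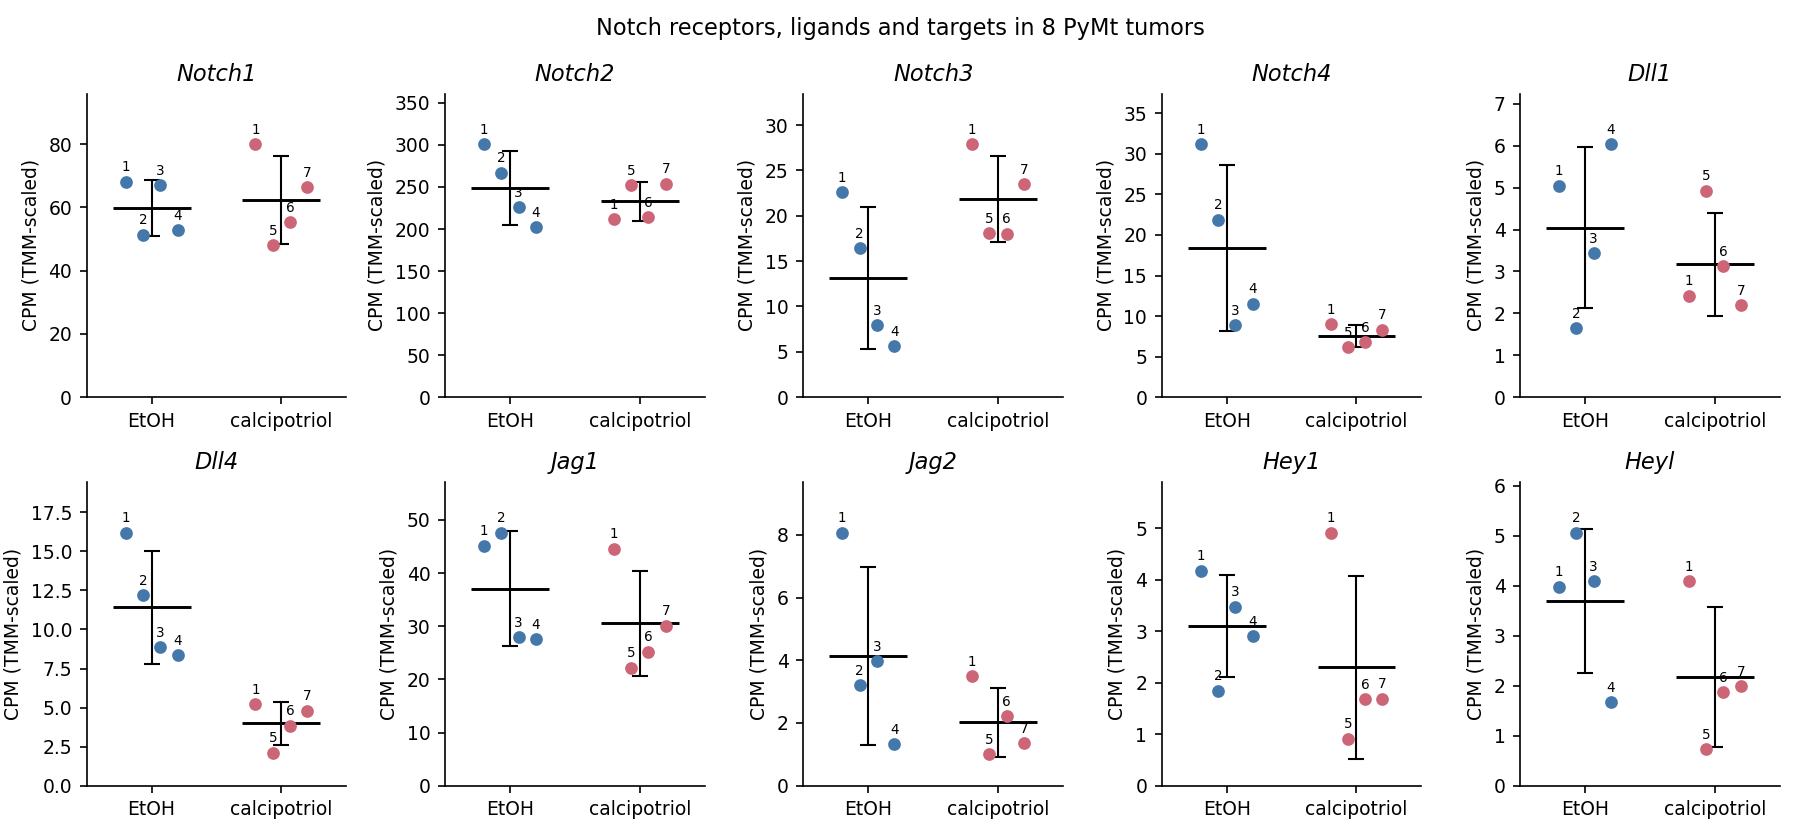
Level of each member in each tumor (vertical axis, CPM after TMM scaling, starting at 0), for EtOH (blue) and calcipotriol (red). Points are tumors with their replicate numbers, horizontal lines are group means and whiskers are 1 SD (n = 4). Dll4 is the 1 member whose groups do not overlap, at 8.37 to 16.2 CPM with EtOH and 2.10 to 5.20 CPM with calcipotriol.

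The results turn on Dll4, on the Notch target Nrarp, which also fell, and on the receptors Notch4 and Notch3, whose ratio changed sides between the groups. Their start regions are shown as RefSeq gives them for GRCm38.p6, as the 250 bases before the start, 5′ to 3′ in the direction of the gene. For Notch4 and Notch3 the RefSeq start differs from that of GENCODE used for the positions elsewhere. Capitals mark CACGTG (an E-box, which bHLH proteins bind) and GGGCGG on either strand (a GC box, bound by Sp factors and chosen after the data were seen).

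Dll4 (chr2:119325534-119325783, forward strand): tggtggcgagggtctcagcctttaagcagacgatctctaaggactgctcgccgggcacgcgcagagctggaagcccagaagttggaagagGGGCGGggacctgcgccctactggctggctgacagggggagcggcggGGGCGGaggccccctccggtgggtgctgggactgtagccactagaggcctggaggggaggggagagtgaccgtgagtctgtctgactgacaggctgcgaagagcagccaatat

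Nrarp (chr2:25180508-25180757, forward strand): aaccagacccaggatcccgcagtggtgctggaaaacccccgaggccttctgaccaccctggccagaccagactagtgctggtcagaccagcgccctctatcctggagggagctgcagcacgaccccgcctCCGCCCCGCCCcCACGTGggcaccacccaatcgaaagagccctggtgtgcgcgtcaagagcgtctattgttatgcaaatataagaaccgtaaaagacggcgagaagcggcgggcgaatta

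Notch4 (chr17:34564045-34564294, forward strand): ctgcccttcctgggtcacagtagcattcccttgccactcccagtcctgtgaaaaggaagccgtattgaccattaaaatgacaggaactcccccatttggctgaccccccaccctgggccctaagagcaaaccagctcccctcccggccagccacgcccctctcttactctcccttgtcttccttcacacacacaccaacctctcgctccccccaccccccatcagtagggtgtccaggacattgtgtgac

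Notch3 (chr17:32166891-32167140, reverse strand): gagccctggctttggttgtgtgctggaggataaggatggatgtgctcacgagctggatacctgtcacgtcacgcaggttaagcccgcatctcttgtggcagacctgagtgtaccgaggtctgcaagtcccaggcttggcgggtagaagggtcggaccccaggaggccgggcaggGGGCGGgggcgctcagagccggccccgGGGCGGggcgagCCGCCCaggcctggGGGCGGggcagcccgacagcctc

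Motifs were searched on both strands in windows from 250 bases before to 50 after the RefSeq start of the 8 receptors and ligands, with 2 windows for Dll1. Of these 8, only Dll4 has a RefSeq start equal to the start of its GENCODE position. The windows of Notch1 (chr2:26503773-26504072) and Jag2 (chr12:112929446-112929745) and 1 window of Dll1 (chr17:15375774-15376073) lie within the GENCODE spans of their genes. TGGGAA, the core of the RBPJ motif, was in the windows of 0 of the 8, beside 25.6% of 32851 windows of the same length over all genes. CACGTG was in 0 of the 8 (7.15% of all windows) and in Nrarp, 108 bases before the start. AGGTCA, a hexamer of nuclear receptors such as the vitamin D receptor, was in 1 of the 8, Dll1 (16.3% of all windows), in the window within its span. GGGCGG was in 5 of the 8 (35.7% of all windows), with 2 copies before the start of Dll4, 4 before that of Notch3 and 0 before that of Notch4. These are matches of letters in short windows.

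Levels of different genes were compared per kilobase of exon (GENCODE M21), on the scale of CPM per kb. The length was that of all annotated exons of a gene merged, 14232 bases for Notch1, which can exceed the length of any single transcript. Order and shares depend on this choice. Notch2 stood above all other members in both groups, at 23.1 ± 4.04 CPM per kb (SD, n = 4) with EtOH and 21.6 ± 2.14 CPM per kb (SD, n = 4) with calcipotriol. With EtOH the order continued with Jag1 (6.36), Notch1 (4.20), Dll4 (2.96), Notch4 (2.28), Notch3 (1.62), Dll1 (0.959), Hey1 (0.951), Heyl (0.724) and Jag2 (0.594 CPM per kb). Below Notch2, the ranges of every pair of neighbors in this order overlapped. With calcipotriol Jag1 (5.24) and Notch1 (4.39) kept their places, and Notch3 (2.71 CPM per kb) stood above Dll4 (1.03) and Notch4 (0.938), with no overlap between Notch3 and Dll4. Dll1 (0.751), Hey1 (0.705), Heyl (0.424) and Jag2 (0.289 CPM per kb) were again the lowest, and the ranges of these neighbors overlapped.

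Among the receptors, Notch2 made up 70.9% to 76.3% of the summed CPM per kb with EtOH and 65.9% to 78.5% with calcipotriol. Notch1 took 10.9% to 16.9% with EtOH and 11.4% to 18.8% with calcipotriol. The shares of both overlapped between the groups, whereas those of the other two receptors did not. Notch3 made up 2.84% to 7.10% with EtOH and 7.53% to 11.6% with calcipotriol. Notch4 made up 3.97% to 9.84% with EtOH and 2.57% to 3.74% with calcipotriol. Among the ligands, Dll4 made up 25.5% to 29.4% with EtOH and 9.62% to 17.5% with calcipotriol. Jag1 made up 54.1% to 67.1% with EtOH and 67.2% to 76.0% with calcipotriol, without overlap but with neighboring limits. Shares of a whole move together, since a lower share of 1 gene raises the others. How often such shares would separate between the groups in other sets of genes was not computed.

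**Figure D2:**
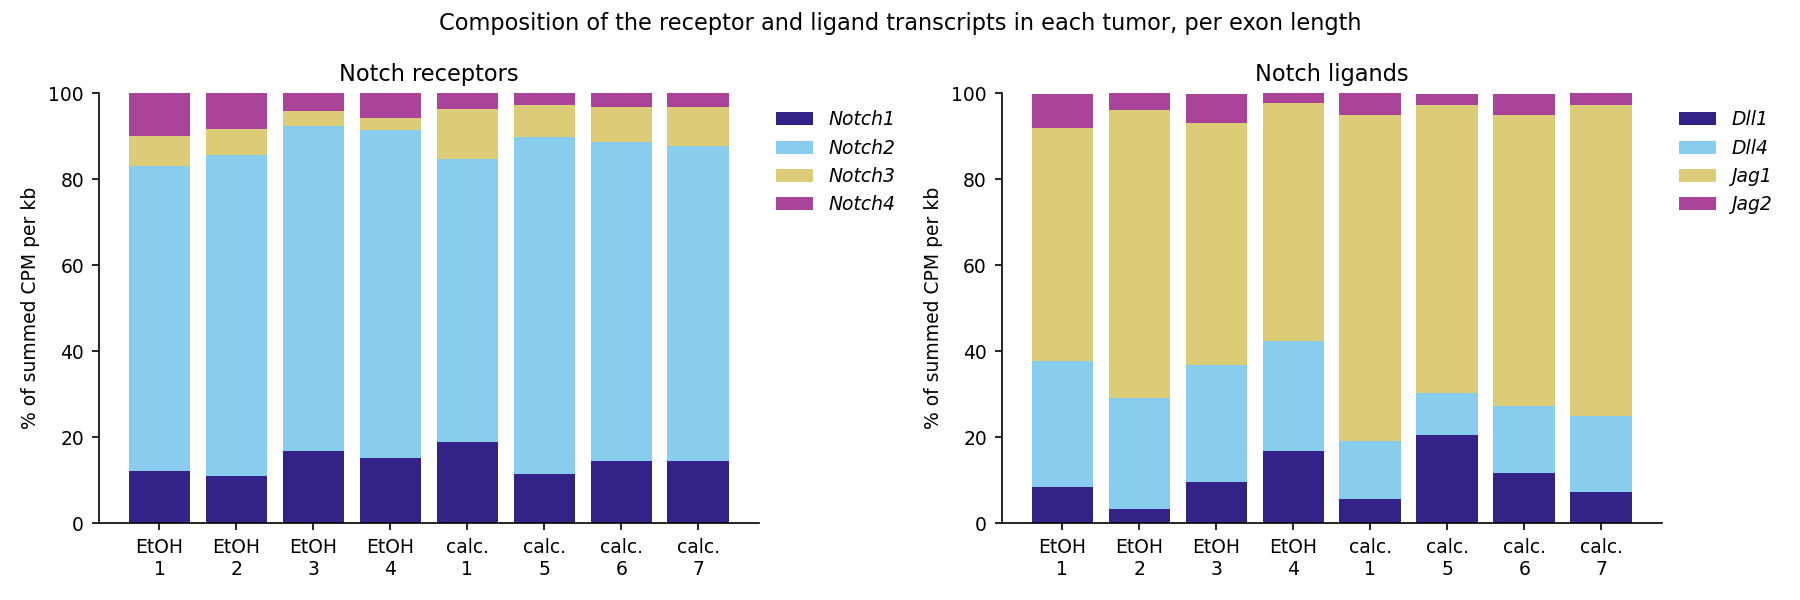
Share of each receptor (left) and each ligand (right) in the summed CPM per kb of its family, in percent, with 1 bar for each tumor (EtOH replicates 1 to 4, then calcipotriol replicates 1, 5, 6 and 7). Notch2 fills most of each receptor bar, and the Dll4 segment is 25.5% to 29.4% of the ligand bars with EtOH and 9.62% to 17.5% with calcipotriol.

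Dll4 (ENSMUSG00000027314, chr2:119325784-119335962, forward strand, GRCm38) encodes a Delta-like ligand best known from the tip cells of growing vessels and from arteries. It had 334, 250, 219 and 190 counts in EtOH replicates 1 to 4 and 131, 46, 80 and 113 counts in calcipotriol replicates 1, 5, 6 and 7. Every calcipotriol-treated tumor was below every EtOH-treated tumor, as for 6.16% of all tested genes. Means were 11.4 ± 3.63 CPM with EtOH and 3.98 ± 1.38 CPM with calcipotriol (SD, n = 4 tumors each). The log2 fold change (with its standard error, SE) was -1.51 (SE 0.34, edgeR adjusted p = 0.0436), or 35% of the EtOH level.

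The call of Dll4 was close to its threshold. It held without calcipotriol replicate 1 (edgeR adjusted p = 0.0248), and was lost when any of EtOH replicates 1, 2, 3 and 4 or calcipotriol replicates 5, 6 and 7 was left out, with a log2 fold change of -1.64 to -1.29 and an adjusted p of 0.0522 to 0.129 in those 7 fits. It was also lost with limma-voom (adjusted p = 0.0502) and with library totals in place of TMM (edgeR adjusted p = 0.0605), while DESeq2 gave an adjusted p of 0.00103. With EtOH replicates 1 and 2 left out together the log2 fold change was -1.11 (edgeR adjusted p = 0.150). Gm14207, annotated on the opposite strand over Dll4, held at most 35 counts in an EtOH-treated tumor and 12 in a calcipotriol-treated tumor.

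Jag1 (ENSMUSG00000027276, chr2:137081456-137116644, reverse strand), the most abundant ligand per kilobase, did not pass the test. Its level was 45.1, 47.6, 27.9 and 27.6 CPM in EtOH replicates 1 to 4 and 44.6, 22.2, 25.2 and 30.1 CPM in calcipotriol replicates 1, 5, 6 and 7, and the groups overlapped widely. Its log2 fold change was -0.28 (SE 0.26, edgeR adjusted p = 0.618). Set against Dll4 in the same tumor, Jag1 per kilobase was 1.84 to 2.59 times the level of Dll4 with EtOH and 4.15 to 6.98 times with calcipotriol, with no overlap. This ratio does not depend on the scaling between libraries.

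Jag2 (ENSMUSG00000002799, chr12:112907819-112929776, reverse strand), the other Jagged ligand, and Dll1 (ENSMUSG00000014773, chr17:15367354-15376872, reverse strand), a Delta-like ligand, were low and varied among tumors of a group. Jag2 was at 8.07, 3.21, 3.97 and 1.32 CPM with EtOH and 3.49, 1.0, 2.21 and 1.36 CPM with calcipotriol. Its log2 fold change was -1.03 with an SE of 0.58 (edgeR adjusted p = 0.378), and -0.49 without EtOH replicate 1, the highest tumor. Dll1 was at 1.65 to 6.04 CPM with EtOH and 2.20 to 4.93 CPM with calcipotriol (log2 fold change -0.35, SE 0.45, edgeR adjusted p = 0.734). Neither gene was separated between the groups.

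Notch4 (ENSMUSG00000015468, chr17:34564268-34588503, forward strand), a receptor largely restricted to endothelium, had the next lowest log2 fold change after Dll4 but did not pass. It was at 31.2, 21.9, 8.90 and 11.5 CPM in EtOH replicates 1 to 4 and at 9.01, 6.16, 6.77 and 8.30 CPM in calcipotriol replicates 1, 5, 6 and 7. The groups met at EtOH replicate 3 and calcipotriol replicate 1, and the EtOH-treated tumors spread widely, with replicates 1 and 2 above 3 and 4. It changed by a log2 fold of -1.28 (SE 0.37, edgeR adjusted p = 0.0942). DESeq2 (adjusted p = 0.0143) and edgeR on unfiltered genes (adjusted p = 0.0488) called it lower. With EtOH replicates 1 and 2 left out its log2 fold change was -0.43 (edgeR adjusted p = 0.408).

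Notch3 (ENSMUSG00000038146, chr17:32120820-32166852, reverse strand), a receptor typical of mural cells in vessels, was the member with the largest log2 fold change above 0. It was at 22.6, 16.4, 7.93 and 5.64 CPM in EtOH replicates 1 to 4 and at 27.9, 18.1, 18 and 23.5 CPM in calcipotriol replicates 1, 5, 6 and 7. The groups overlapped, because EtOH replicate 1 lay inside the calcipotriol range. It was also widely spread with EtOH, where replicates 1 and 2 stood above 3 and 4. Its change on the log2 scale was 0.74 (SE 0.38, edgeR adjusted p = 0.337). With EtOH replicates 1 and 2 left out, so that 2 tumors stood against 4, Notch3 passed, with a log2 fold change of 1.69 (SE 0.27, edgeR adjusted p = 0.0291), and it did not pass under the other 14 alternatives.

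The ratio of Notch3 to Notch4 was taken within each tumor. Per kilobase, Notch3 was 0.722, 0.745, 0.888 and 0.491 times the level of Notch4 in EtOH replicates 1 to 4, and 3.09, 2.93, 2.64 and 2.83 times in calcipotriol replicates 1, 5, 6 and 7. Notch4 was thus above Notch3 in every EtOH-treated tumor, replicates 1 and 2 as well as 3 and 4, and below it in every calcipotriol-treated tumor. This ratio and that of Jag1 to Dll4 were picked after their values were seen. Of the 45 pairs of members, 10 had ratios that did not overlap between the groups, and all 10 included Dll4, Notch3 or Notch4. Among all pairs of tested genes 13.2% had such ratios, and pairs that share a gene are not independent.

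Notch1 (ENSMUSG00000026923, chr2:26457903-26516663, reverse strand) and Notch2 (ENSMUSG00000027878, chr3:98013527-98150361, forward strand), the broadly expressed receptors, were close between the groups. Notch1 was at 51.3 to 68.1 CPM with EtOH and 48.1 to 80.0 CPM with calcipotriol, with a log2 fold change of 0.06 (SE 0.18, edgeR adjusted p = 0.889). Notch2 was at 202 to 301 CPM with EtOH and 212 to 254 CPM with calcipotriol, with a log2 fold change of -0.10 (SE 0.15, edgeR adjusted p = 0.785). Both genes overlapped between the groups, with EtOH replicates 1 and 2 above every calcipotriol-treated tumor for Notch2, and the sign of each change turned when single tumors were left out.

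Hey1 (ENSMUSG00000040289, chr3:8663359-8667256, reverse strand) and Heyl (ENSMUSG00000032744, chr4:123233556-123249875, forward strand) encode transcriptional repressors that Notch signaling induces. Hey1 was at 4.18, 1.85, 3.48 and 2.91 CPM in EtOH replicates 1 to 4 and 4.92, 0.913, 1.68 and 1.69 CPM in calcipotriol replicates 1, 5, 6 and 7. Heyl was at 3.98, 5.06, 4.09 and 1.67 CPM with EtOH and 4.09, 0.730, 1.87 and 1.99 CPM with calcipotriol, in the same order of replicates. In both genes calcipotriol replicate 1 was well above the other calcipotriol-treated tumors and inside or above the EtOH range. On the log2 scale the change was -0.43 for Hey1 (SE 0.54, edgeR adjusted p = 0.731) and -0.77 for Heyl (SE 0.54, edgeR adjusted p = 0.497). Without calcipotriol replicate 1 these values were -1.12 (adjusted p = 0.220) and -1.27 (adjusted p = 0.210), and neither passed.

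**Figure D3:**
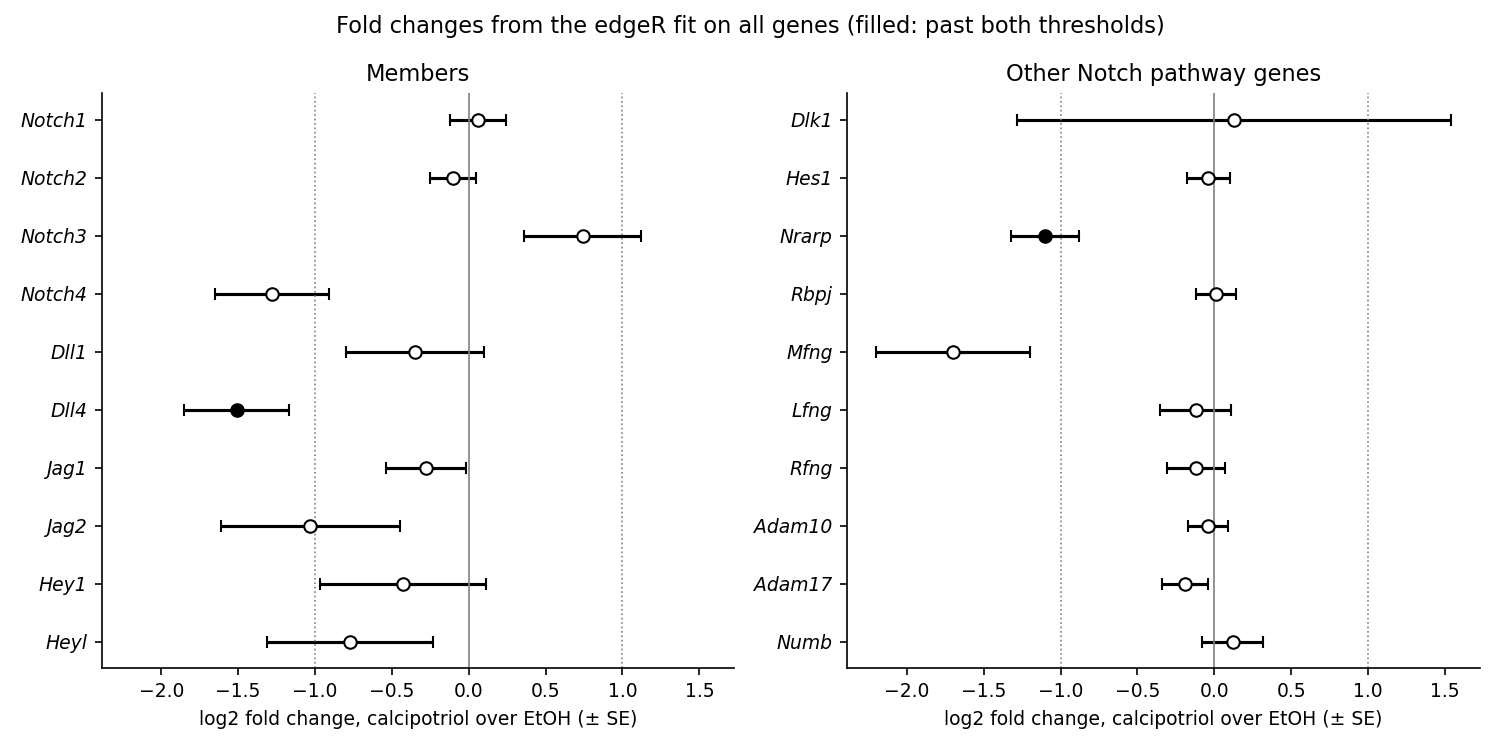
Log2 fold change of calcipotriol over EtOH (horizontal axis) with 1 standard error on each side, for the 10 members (left) and some other Notch pathway genes (right). Those on the right are Hes1, Nrarp, Rbpj, Mfng, Lfng, Rfng, Adam10, Adam17, Numb and Dlk1. Neurl1b, Fbxw7, Dtx3 and Aph1b are not drawn. Filled points passed both thresholds, and dotted lines mark a log2 fold change of -1 and 1. The filled points are Dll4, at -1.51, and Nrarp, at -1.10.

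Genes of endothelial cells fell in the same tumors in which Dll4 fell. Of 20 endothelial marker genes, all tested, 11 were called lower and 0 higher, and the median log2 fold change was -1.55. At an unadjusted p under 0.05, 17 were lower and 0 higher, and DESeq2 called 16 lower and limma-voom 7. Their summed level was 365 to 745 CPM with EtOH and 154 to 338 CPM with calcipotriol, without overlap. Plvap, of the diaphragms of vessel pores, fell from 89.5 to 40.1 CPM (log2 fold change -1.16), and Cdh5, the cadherin of endothelial junctions, was at 81.3 and 29.5 CPM and did not pass (-1.46, edgeR adjusted p = 0.126). Of 12 mural marker genes tested, 2 were called lower (Rgs5 and Mcam) and 0 higher, with a median log2 fold change of -1.26 and a summed level of 484 to 932 CPM with EtOH and 343 to 534 CPM with calcipotriol. At an unadjusted p under 0.05, 8 were lower and 0 higher, and DESeq2 called 5 lower and limma-voom 2. Of 9 tested genes of arterial and tip cells, 2 were called lower, Esm1 and Cxcr4, with a median log2 fold change of -0.94 and a summed level of 545 to 742 CPM with EtOH and 315 to 536 CPM with calcipotriol. With EtOH replicates 1 and 2 left out, 2 of the endothelial genes were called lower and 0 of the mural, arterial and tip cell genes.

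Other marker lists were read in the same way. The 5 erythroid genes, such as those of globins, were all called lower, with a median log2 fold change of -2.93 and a summed level of 3451 to 5827 CPM with EtOH and 434 to 819 CPM with calcipotriol. The 7 macrophage markers had a median of -0.79 with 2 called lower (5 at an unadjusted p under 0.05) and a summed level of 1739 to 2138 CPM with EtOH and 796 to 1554 CPM with calcipotriol, and 0 were called with EtOH replicates 1 and 2 left out. The 7 fibroblast markers had a median of 0.06 with 0 called (1 higher and 1 lower at an unadjusted p under 0.05, and 0 by DESeq2 and limma-voom). Of 9 tested epithelial markers 2 were called higher (Krt14 and Trp63, of basal cells) and 0 lower, 3 were higher and 2 lower at an unadjusted p under 0.05, and limma-voom called 0. The abundant keratins had values in the other direction without overlap, as for 6.16% of all tested genes. Krt18 was at 557 ± 90.3 CPM with EtOH and 293 ± 39.9 CPM with calcipotriol (SD, n = 4). Its log2 fold change was -0.93 (edgeR adjusted p = 0.0162), short of the minimum fold. Krt8 was at 592 and 368 CPM (-0.69). The summed epithelial level was 1016 to 1322 CPM with EtOH and 611 to 898 CPM with calcipotriol. Of 3 tested adipocyte markers 1 was lower (Fabp4). In skeletal muscle, T cell and skin keratinocyte lists edgeR called 0 genes (6, 4 and 2 tested, with 2, 0 and 1 lower at an unadjusted p under 0.05), DESeq2 called 1 muscle gene lower, and Flg, of cornified skin, was at 0 in every tumor. Their part in the changes of the members was not tested.

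**Figure D4:**
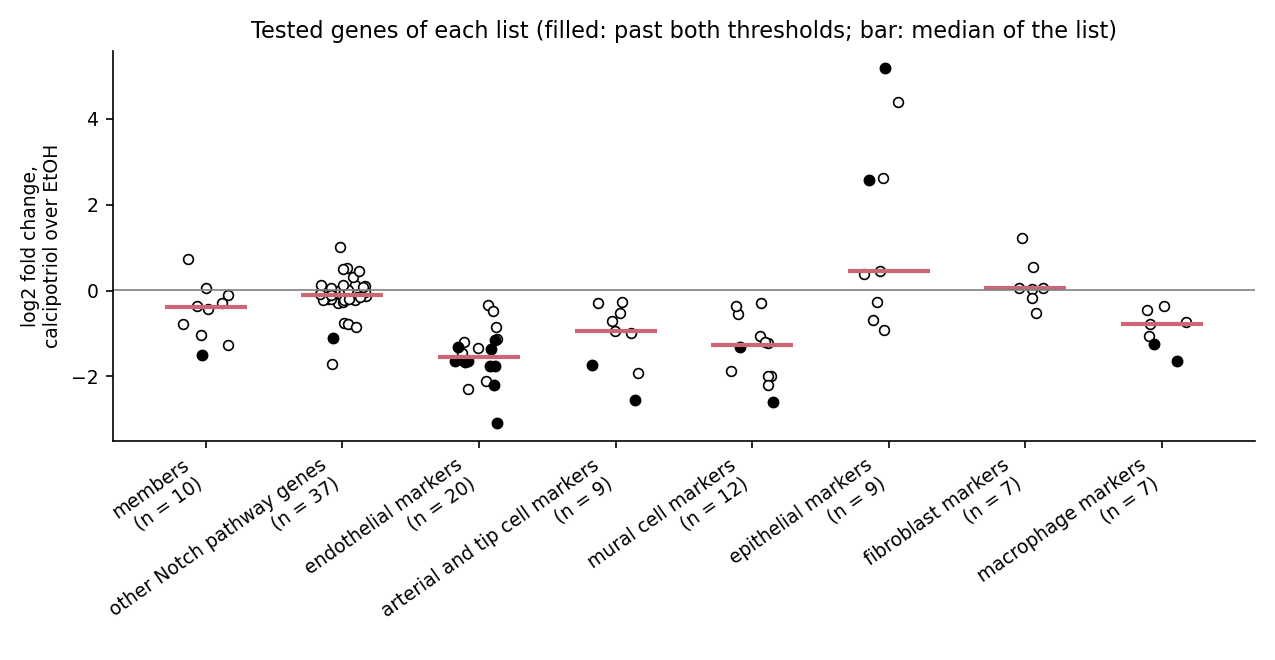
Log2 fold change of calcipotriol over EtOH (vertical axis) for each tested gene of the members, the other Notch pathway genes and 6 marker lists. Filled points passed both thresholds, red bars are the median of each list, and the grey line is the median of all genes tested (0.02). The median is -1.55 for the endothelial markers and -0.11 for the other Notch pathway genes, with the members between them at -0.39.

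To set the members beside the vessel genes, the counts of each were divided by the summed counts of the endothelial list in the same tumor. These ratios are descriptions without a test. Dll4 came to 2.18%, 1.64%, 2.43% and 2.07% of that sum in EtOH replicates 1 to 4 and to 1.54%, 1.36%, 1.77% and 2.14% in calcipotriol replicates 1, 5, 6 and 7. Notch4 came to 2.44% to 4.19% with EtOH and 2.66% to 4.0% with calcipotriol. Both overlapped between the groups on this scale, with a log2 difference of -0.29 (SD of tumors in a group 0.26) for Dll4 and 0.13 (SD 0.30) for Notch4. Against the arterial and tip cell list instead, Dll4 was at 1.53% to 2.19% with EtOH and 0.666% to 0.997% with calcipotriol, without overlap, so the result for Dll4 depended on the list it was set against. The most abundant genes of that list were Unc5b (317 and 260 CPM) and Nrp1 (128 and 88.4 CPM), which are not confined to endothelium.

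Notch1, Notch2, Notch3 and Jag1 were higher relative to the endothelial list in every calcipotriol-treated tumor than in any EtOH-treated tumor. Notch1 came to 6.93% to 18.3% of the sum with EtOH and 23.7% to 31.3% with calcipotriol. Notch3 came to 1.39% to 3.03% with EtOH and 8.26% to 11.8% with calcipotriol. Jag1 came to 6.05% to 7.65% with EtOH and 11.6% to 14.4% with calcipotriol, and Notch2 to 36.0% to 62.0% and 62.7% to 164%, with limits that nearly met. Levels of these genes themselves overlapped between the groups, as given above, while the sum in the denominator did not. The share of all tested genes that would separate on this scale, or against the other lists, was not computed. Dll1, Jag2, Hey1 and Heyl overlapped on this scale too.

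Notch3 was also set against the mural list, though which cells of these tumors held its RNA was not tested. It was at 2.43%, 1.97%, 1.63% and 1.17% of the summed mural counts in EtOH replicates 1 to 4 and at 5.23%, 5.28%, 3.68% and 4.68% in calcipotriol replicates 1, 5, 6 and 7. The groups did not overlap, and the log2 difference was 1.43 (SD of tumors in a group 0.36). Pdgfrb, which fibroblasts also express, made up most of this sum, at 470 CPM with EtOH and 387 CPM with calcipotriol. Heyl, the other gene typical of mural cells, was at 0.346% to 0.842% with EtOH and 0.213% to 0.765% with calcipotriol on the same scale, and the groups overlapped.

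**Figure D5:**
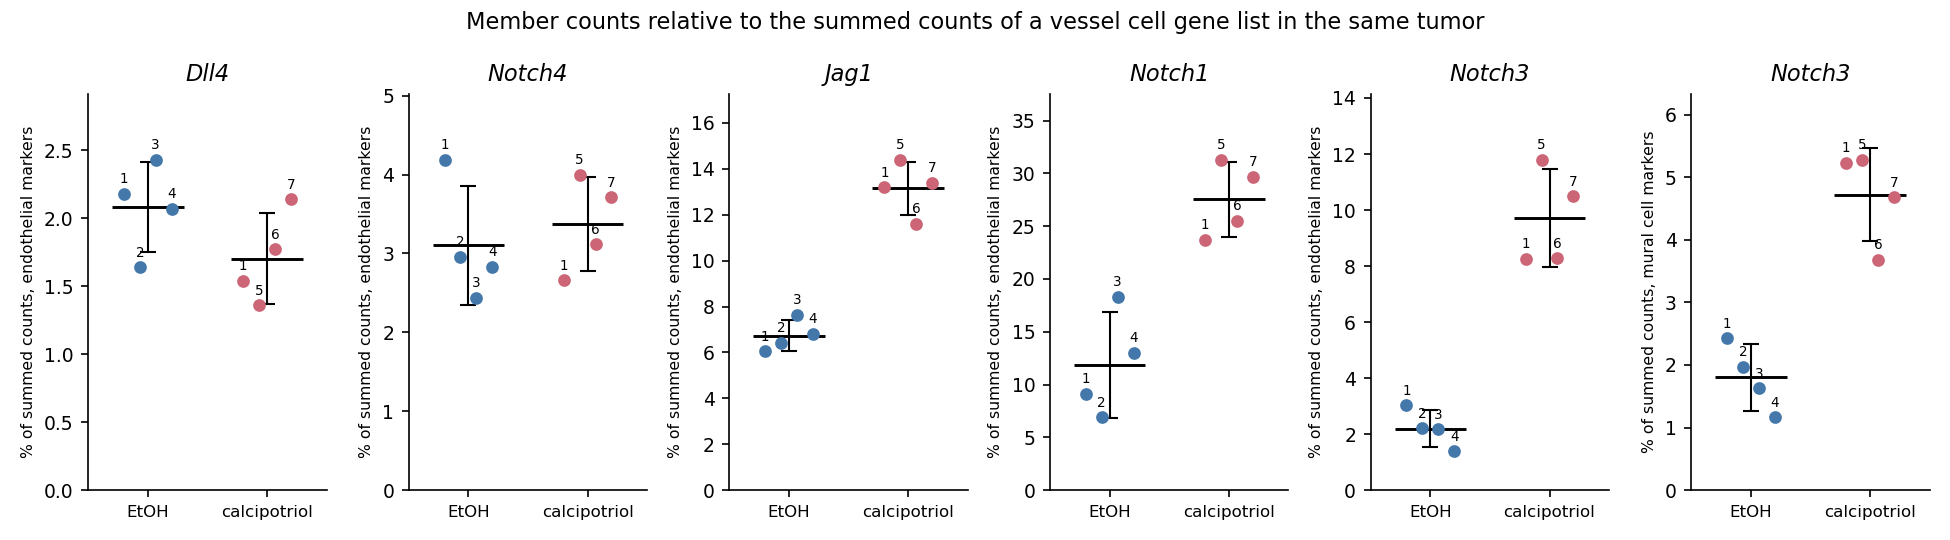
Counts of 5 members as a percentage of the summed counts of 20 endothelial marker genes in the same tumor, and of Notch3 as a percentage of the summed counts of 12 mural marker genes (last panel). Points are tumors with their replicate numbers, for EtOH (blue) and calcipotriol (red), lines are means and whiskers 1 SD (n = 4). Dll4 and Notch4 overlap between the groups, whereas Jag1, Notch1 and Notch3 are higher in all calcipotriol-treated tumors.

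A further 43 genes covered the rest of the pathway, and 37 of them could be tested. Of these, 1 fell (Nrarp) and 0 rose, so that 2.70% were called lower, beside 0.948% of all genes. This list was also chosen with earlier results of these data known, so its shares are descriptions. The median log2 fold change was -0.11. The groups did not overlap for 2 of the 37 lower with calcipotriol (6.16% of all tested genes) and for 1 higher (6.32%). At an unadjusted p under 0.05, 3 were lower (Nrarp, Mfng and Aph1b) and 3 were higher (Fbxw7, Neurl1b and Dtx3). DESeq2 called 2 lower and 1 higher, and limma-voom 1 lower and 0 higher.

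Nrarp, a target of Notch that feeds back on the Notch intracellular domain, was at 25.2, 24.5, 33.6 and 42.1 CPM in EtOH replicates 1 to 4 and at 18, 11.6, 16.2 and 12.8 CPM in calcipotriol replicates 1, 5, 6 and 7. The groups did not overlap, as for 6.16% of all tested genes, and EtOH replicates 3 and 4 were its highest tumors. The summed endothelial level of these 2 tumors (365 and 405 CPM) was below that of EtOH replicates 1 and 2. It was above that of every calcipotriol-treated tumor (154 to 338 CPM). With a log2 fold change of -1.10 (SE 0.22, edgeR adjusted p = 0.0291) Nrarp was the only other pathway gene called. The call was lost without EtOH replicate 3 (edgeR adjusted p = 0.0710), EtOH replicate 4 (0.0595), or calcipotriol replicate 5 (0.0865), 6 (0.0824) or 7 (0.0986). It held in the other 10 of 15 alternatives. With EtOH replicates 1 and 2 left out together, the log2 fold change was -1.36 (edgeR adjusted p = 0.0279). The adjusted p was 0.0322 with limma-voom, 0.000371 with DESeq2 and 0.0464 with edgeR on library totals.

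Among other targets, Hes1 was abundant and close between the groups, at 86.5 to 106 CPM with EtOH and 78.6 to 117 CPM with calcipotriol (log2 fold change -0.04, SE 0.14, edgeR adjusted p = 0.921). Hes5 had 0 counts in all 8 tumors, and Hey2 had 13, 8, 0 and 0 counts with EtOH and 0, 0, 3 and 1 with calcipotriol, too few for a test. At these depths 3 counts correspond to 0.1196 to 0.1524 CPM before TMM scaling. Dll3, a Delta-like gene, had 0 counts in 7 of the tumors and 2 in calcipotriol replicate 5. Dlk1, a Delta-like protein outside the canonical ligands, ranged from 0 to 183 counts with no order by group (log2 fold change 0.13, SE 1.41, edgeR adjusted p = 0.973).

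The fringe enzymes add sugars to Notch receptors and so tune their response to each ligand. Mfng was at 10.9, 8.66, 5.58 and 7.05 CPM in EtOH replicates 1 to 4 and 5.28, 0.867, 1.92 and 1.78 CPM in calcipotriol replicates 1, 5, 6 and 7. The groups did not overlap, as for 6.16% of all tested genes, though calcipotriol replicate 1 lay just under the EtOH range. The gene did not pass (log2 fold change -1.70, SE 0.50, edgeR adjusted p = 0.103). Without calcipotriol replicate 1 it passed, with a log2 fold change of -2.40 (edgeR adjusted p = 0.00772), and DESeq2 called it as well (adjusted p = 0.0148). Lfng (log2 fold change -0.12, SE 0.23) and Rfng (-0.12, SE 0.19) did not pass.

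Genes of the machinery that cuts the receptor and carries its signal did not pass. Rbpj was at 410 to 473 CPM with EtOH and 362 to 474 CPM with calcipotriol, a log2 fold change of 0.01 (SE 0.13, edgeR adjusted p = 0.972). The log2 fold change was -0.04 (SE 0.13) for the protease gene Adam10, -0.19 (SE 0.15) for Adam17 and 0.12 (SE 0.20) for the inhibitor Numb. Neurl1b and Fbxw7 were named after their values were seen. Neurl1b, a ubiquitin ligase that acts on ligands, had a log2 fold change of 1.01 (SE 0.29, edgeR adjusted p = 0.0964). Fbxw7, which marks the Notch intracellular domain for breakdown, had 0.52 (SE 0.14, edgeR adjusted p = 0.0850). The groups did not overlap for Fbxw7, as for 6.32% of all tested genes in that direction.

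The patterns most like that of Dll4 were searched among the 11925 other tested genes with a symbol and a mean of at least 50 counts, by the root mean square difference of log2 CPM over the 8 tumors, each gene centered on its own mean. The nearest were Golm1, a Golgi membrane protein, at 0.16, Fbln1, a matrix glycoprotein, at 0.18, and Prex1, an activator of Rac, at 0.18, while the median gene was at 0.93. Their log2 fold changes, which the search for a like pattern largely fixes, were -1.45, -1.46 and -1.42.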

How the data were processed

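Tumor RNA from 4 EtOH-treated and 4 calcipotriol-treated mice was sequenced, and the authors deposited estimated counts for each gene and tumor, not scaled between libraries. The submitters' processing notes name STAR 2.5.3, RSEM 1.3.1, DESeq2 1.24.0 and GRCm38, without their roles. The annotation and any use of strand in counting are not given in the sources used here. RSEM divides reads shared by genes, so estimated counts need not be whole, and they were rounded. Opposite-strand genes overlap Notch1 (0610009E02Rik and Gm13568, up to 187 and 114 counts in a tumor), Dll4 (Gm14207, up to 35) and Notch3 (Gm17276, up to 4). Whether counting kept such reads apart is not known.

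Symbols, positions and exon lengths were taken from GENCODE M21 (GRCm38), in which 52081 of 55414 identifiers matched. Groups and replicate numbers came from the sample labels, and the methods describe the 4 per group as biological replicates. The test used edgeR 4.0.16 under R 4.3.3 (filterByExpr with a minimum count of 10, TMM, glmQLFTest), over all 14458 genes that passed the filter, with the thresholds of the study's methods. The standard error is the log2 fold change divided by the square root of the F statistic. DESeq2 1.42.0 and limma 3.58.1 (voom) were alternatives, with other scalings and filters and each tumor left out. In ratios to marker lists 0.5 counts were added to the member for the log2 scale. On simulated counts with 200 genes shifted by 2 on the log2 scale (dispersion 0.12, 14263 genes tested), edgeR recovered 194 with 9 false calls. DESeq2 recovered 194 with 21 false calls, and limma-voom 190 with 9. Every gene was given the same dispersion, and the shift was larger than any member's change, so recovery of smaller changes was not measured. The members and gene lists were chosen with earlier results of these data known. The named genes are the members, 14 pathway genes fixed by name (1 is not reported here), pathway genes past both thresholds, up to 3 abundant markers a list, markers at 0 in every tumor and the 3 genes most like each called member. Other genes named in the text (Aph1b, Dtx3, Fbxw7, Neurl1b and marker genes that were called or set a tumor apart) were chosen after their values were seen. The 3-count limits cover counting error only, because PCR copies are not separate molecules.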

Additional observations from a re-analysis of the deposited data

How the results depend on the processing

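The numbers of genes called higher and lower (155 and 137) became 247 and 211 without the filter on low counts and 315 and 325 with DESeq2, and ranged from 68 to 241 and from 41 to 401 with each tumor left out in turn, with the highest counts without calcipotriol replicate 1. The number of members called lower (1) became 0 with library totals and with limma-voom, 2 without the filter and with DESeq2, and ranged from 0 to 1 with each tumor left out. Among the other pathway genes DESeq2 gave 1 higher and 2 lower, and each tumor left out gave 0 to 1 higher and 0 to 2 lower. With EtOH replicates 1 and 2 left out together, which was added after the data were seen, 113 genes were higher and 64 lower, 1 member was higher (Notch3) and 0 were lower, Notch2 turned to 0.12, Jag1 to 0.14, Hes1 to 0.05, Rbpj to -0.04, Adam10 to 0.07 and Dlk1 to -0.68, and the ratio of Notch1 to endothelial genes moved to 0.82 on the log2 scale. Under the other alternatives 0 members were called higher. Library totals moved the median of all genes to 0.102 from 0.019, and turned Hes1 to 0.05 and Adam10 to 0.04. limma-voom turned Dlk1 to -1.36. With each tumor left out, the log2 fold change of genes near 0 changed sign, over -0.08 to 0.17 for Notch1, -0.18 to 0.01 for Notch2, -0.15 to 0.05 for Hes1, -0.03 to 0.09 for Rbpj, -0.23 to 0.14 for Lfng, -0.20 to 0.01 for Rfng, -0.12 to 0.02 for Adam10, -0.02 to 0.20 for Numb and -3.29 to 1.37 for Dlk1. The 7 members besides Notch1, Notch2 and Jag1 kept their direction under all 15 alternatives. With the arterial and tip cell list as denominator, the log2 difference of the ratio was 0.56 for Notch1, 0.43 for Notch2, 1.44 for Notch3, -0.60 for Notch4, -1.03 for Dll4, 0.23 for Jag1, -0.40 for Jag2, -0.13 for Hey1 and -0.38 for Heyl. That list fell less than the endothelial list, to a median of -0.94 against -1.55. The cause of the changes with DESeq2, voom and left-out tumors was not tested. No paired analysis was made, because the tumors came from different mice and the replicate numbers in the labels give no pairing. Low counts limit Hey1, Heyl, Dll1 and Jag2, each under 9 CPM in every tumor.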
